A study of Mus musculus with 30 samples.

Results

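Sucrase-isomaltase (Sis, carried on the array under its older name 2010204N08Rik) and lactase (Lct) are disaccharidases of the intestinal brush border, and they are described here by the 2 probes that the array holds for them, out of 42006 noncontrol probes and 25030 probes in the authors' value table. RNA was taken from 15 tissues of adult male C57BL/6 mice. From the digestive tract came stomach, small intestine, large intestine and liver, from the nervous system brain cortex, cerebellum and eyes, and beside them bladder, bone, fat, heart, kidney, lung, muscle and skin. The labels name no treatment and no altered gene. The labels give an age of 28 weeks, and the methods give another age. Each tissue had 2 arrays, 30 in all, from different animals, but the series' own description says that bone and fat had a single replication. For those tissues the spread between arrays may be technical. On every array Cy3 carried the tissue and Cy5 a common reference, a commercial pool of mouse cell line RNA mixed with embryonic stem cell RNA, and the dyes were never exchanged. The values are log2(Cy3/Cy5), after background correction and normalisation within the array, so that a higher value means more signal in the tissue relative to the reference, and they compare tissues within a probe and never one probe with the other. A whole piece of tissue was extracted, so fewer cells of a type and less RNA per cell cannot be told apart.

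Both enzymes are anchored in the apical membrane of the absorptive cells (enterocytes) that line the villi of the small intestine. Sucrase-isomaltase splits sucrose and the branched and short glucose chains left by starch digestion, and lactase splits the milk sugar lactose into glucose and galactose. In rodents lactase is high in the suckling animal and falls around weaning, whereas sucrase-isomaltase appears at weaning and stays. The mice measured here were adults.

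The first 30 bases of each 60-base probe identify what was hybridised. Where the probes lie in their transcripts is not given in the sources used here.
Sis probe: ggtccacggttctactttcctgactcccta
Lct probe: gttctctgtcctcatttcagggtttgatgg

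Because both genes were highest in the same tissue, the 250 bases before their annotated starts are shown, from RefSeq on GRCm38.p6. Sis lies on chromosome 3 from 72888557 to 72967863, minus strand, and Lct on chromosome 1 from 128284756 to 128328318, minus strand. The windows shown are chr3:72967864-72968113 for Sis and chr1:128328319-128328568 for Lct, written 5′ to 3′ on the minus strand. Capitals mark, on either strand, the letters ATAAA (the core bound by Cdx homeobox factors), GATAA (the core bound by Gata factors) and GTTAAT (part of the site bound by Hnf1 factors), and neighbouring matches may overlap.
Sis promoter: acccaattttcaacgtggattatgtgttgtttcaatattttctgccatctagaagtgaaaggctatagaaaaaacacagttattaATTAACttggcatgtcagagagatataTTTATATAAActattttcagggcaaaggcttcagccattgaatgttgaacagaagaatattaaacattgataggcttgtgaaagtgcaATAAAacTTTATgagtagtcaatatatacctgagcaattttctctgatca
Lct promoter: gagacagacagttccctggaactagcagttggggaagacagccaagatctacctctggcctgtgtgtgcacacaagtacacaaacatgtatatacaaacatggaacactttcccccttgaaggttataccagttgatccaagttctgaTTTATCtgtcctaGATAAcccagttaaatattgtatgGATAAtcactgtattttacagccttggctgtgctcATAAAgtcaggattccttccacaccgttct

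The Sis window held 4 matches to ATAAA, whose first bases stood 138, 133, 50 and 43 bases before the start, and 1 match to GTTAAT at 165 bases, but none to GATAA. The Lct window held 2 matches to ATAAA, at 102 and 30 bases, and 3 matches to GATAA, at 101, 89 and 65 bases, but none to GTTAAT. Among all 32851 promoter windows of this length, 37.3% held ATAAA, 22.6% held GATAA and 6.43% held GTTAAT. The GC content was 31.6% for Sis and 42.8% for Lct, below the median of 52.4% over all windows. These matches describe letters and not bound sites.

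Sis was far higher in the small intestine than in any other tissue except 1 of the 2 large intestine arrays. The small intestine arrays read 9.02 and 9.51 (9.27 ± 0.35, SD, n = 2). The 26 arrays of the 13 tissues outside the intestine ran from -1.25 to -0.15, with a median of -0.86. On those 26 arrays the Cy3 signal was 57.8 to 78.4 scanner units, against local backgrounds of 42 to 52 around the Sis spots, and it was well above background on only 1, brain cortex replicate 1. In the small intestine the Cy3 signals were 172575 and 102886 units. Sis was thus at the level of the background in nearly every other tissue, and its small differences among those tissues carry no order.

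In the large intestine the replicates did not resemble each other. Replicate 1 read 7.91 (Cy3 signal 17468 units) and replicate 2 read -0.46 (68.9 units, not well above background), so that the mean of 3.72 ± 5.92 (SD, n = 2) describes neither array. The difference of 8.37 between them was the largest among 21012 probes with both values. In the plot of both probes by tissue, this is the widest gap between the points of 1 tissue.

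**Figure D1:**
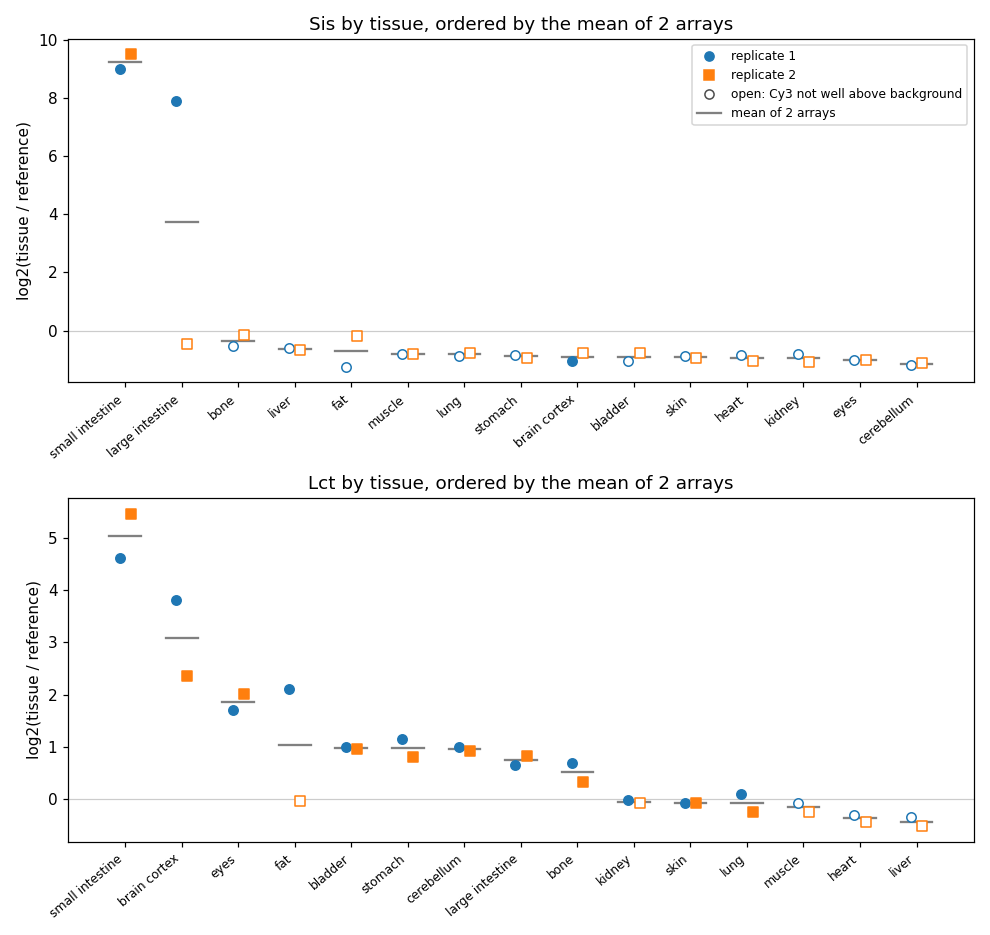
Log2 ratio of tissue over reference for Sis (top) and Lct (bottom) on each of 30 arrays, with tissues ordered by their mean (grey line). Circles are replicate 1, squares replicate 2 and open symbols arrays whose Cy3 signal was not well above background. Sis is high on both small intestine arrays and on 1 large intestine array, whereas Lct is highest in small intestine, with brain cortex next.

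The moderated F-test of limma over the 15 tissues gave an F of 7.77 for Sis (adjusted p = 8.31e-05) and 18.6 for Lct (adjusted p = 1.97e-07), but 90.8% of the 21019 probes tested passed it. Sis in the small intestine exceeded the mean of the other 14 tissues by 9.79 ± 1.04 on the log2 scale (SE, adjusted p = 3.97e-07, limma), where 5.06% of all probes were called higher by at least 2. Sis passed the filter on low values only through the small intestine, where it is high, and with no filter the adjusted p was 7.41e-07. Without large intestine replicate 1 the difference was 10.09. The small intestine was higher than each of the other 14 tissues (adjusted p = 4.61e-06 to 0.0110, limma, with a difference of at least 1), as it was for 0.723% of all probes. In 12 of these tissues, from bone (difference 9.62) to cerebellum (10.42), neither array was well above background, so their level is only a limit and no fold is given.

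Against the large intestine Sis was 5.54 ± 1.42 higher in the small intestine (SE, adjusted p = 0.0110, limma), a comparison in which 6.33% of all probes were called higher by at least 1. Without large intestine replicate 1 the difference was 9.73, and without replicate 2 it was 1.36. The call was lost without small intestine replicate 1 (adjusted p = 0.0607) and without replicate 2 (adjusted p = 0.0624), and in a fit to the 4 intestinal arrays alone (adjusted p = 0.626). The large intestine exceeded the mean of the 13 tissues outside the intestine by 4.57 ± 1.04 (SE, adjusted p = 0.00131, limma, with 4.45% of all probes called), but by 0.39 without replicate 1 (adjusted p = 0.207). The call of Sis in the large intestine therefore rests on that array.

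Other genes separated the 2 large intestine arrays in the same direction. Cps1, the mitochondrial enzyme that begins the urea cycle and a gene of liver and small intestine, read 4.34 on replicate 1 and -0.14 on replicate 2, beside 6.83 ± 0.24 (SD, n = 2) in the small intestine. Abcg2, an apical efflux transporter, read 2.36 and -1.51, and Abcb1a, another efflux transporter, 4.14 and 2.33. Of the 37 probes that were at least 4 higher on replicate 1, 36 were among the 1063 enriched in the small intestine. Most of the 1063 differed far less, with a median of 0.46 against 0.03 over all 21012 probes. Of the 1063, 374 were at least 1 higher on replicate 1 and 52 on replicate 2. Over all probes these counts were 3429 and 1886. The named ones among the 37, singled out after their values were seen, were Sis, Cps1, Abhd3 (3.81 and -0.46) and 2010003K15Rik (now Smlr1, 4.07 and -0.12). The small-intestinal genes did not all do so, and Lct was one that did not.

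Lct read 0.64 on large intestine replicate 1 and 0.83 on replicate 2. Acot12, an acyl-CoA thioesterase of the small intestine, liver and kidney, was not well above background on either (0.06 and 0.00). Ada, adenosine deaminase, read 2.08 and 1.36 against 5.32 ± 0.23 (SD, n = 2) in the small intestine. Of the 11 genes listed as markers of small intestine enterocytes, 5 had a named probe (Vil1, Alpi, Akp3, Ada, Acot12), and their summed Cy3 signal above background was 41513 and 30784 units in the large intestine against 165794 and 97848 in the small intestine. Most of the large intestine sum was Vil1 (38794 and 29329 units), and kidney had a sum of 23872 and 32174, so the sum is not particular to enterocytes. Among the listed colon markers, 1600029D21Rik (now Plet1) read 6.10 and 5.83 in the large intestine against 0.65 and 0.08 in the small intestine, and 1810030J14Rik (now Mptx1) read 6.68 and 6.72 against 5.74 and 3.36. Both were high on both large intestine arrays. The Cy3 signal of 1810030J14Rik was 107135 and 118928 units there, against 5087 and 304 units in the small intestine. No named probe was found for the listed markers of stomach or exocrine pancreas.

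The large intestine arrays also differed in general. The median absolute difference between them was 0.48 over 21012 probes, the largest of the 15 tissues, and 25.3% of probes differed by at least 1. They came from different slides and scan days. Replicate 1 shared its slide with small intestine replicate 2 and its scan day with both small intestine arrays. The part of slide, dissection and tissue content in the Sis value was not tested.

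**Figure D2:**
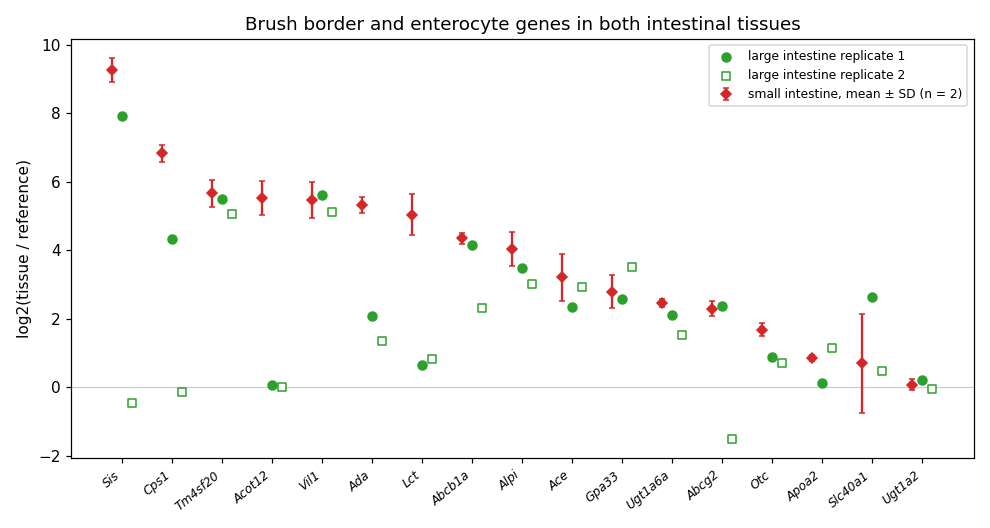
Log2 ratio of tissue over reference for the 17 tested brush border and enterocyte genes in the small intestine (red diamonds, mean ± SD, n = 2) and on each large intestine array (green circles replicate 1, open squares replicate 2). Sis, Cps1 and Abcg2 are far apart between the large intestine arrays, whereas Lct, Acot12 and Ada are below the small intestine on both.

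Lct was also highest in the small intestine, but it was detected in more tissues than Sis. The small intestine arrays read 4.61 and 5.47 (5.04 ± 0.61, SD, n = 2). Brain cortex followed with 3.82 and 2.36 (3.09 ± 1.04) and eyes with 1.71 and 2.01 (1.86 ± 0.21). The arrays of these 3 tissues did not overlap between small intestine, cortex and eyes.

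A middle group lay near 1. Fat read 2.11 on replicate 1 and -0.03 on replicate 2, the latter not well above background. Bladder read 1.00 and 0.96, stomach 1.15 and 0.79, and cerebellum 1.00 and 0.91. Large intestine read 0.64 and 0.83, and bone 0.69 and 0.32. All of these arrays but fat replicate 2 were well above background, at Cy3 signals no higher than 421 units.

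The lowest group lay near or below 0. Kidney read -0.03 and -0.08, skin -0.07 and -0.08, and lung 0.10 and -0.26. Muscle read -0.08 and -0.25, heart -0.31 and -0.44, and liver -0.35 and -0.52, and in these 3 tissues neither array was well above background. In all, the Lct spot was well above background in Cy3 on 22 arrays and the Sis spot on 4.

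The small intestine exceeded the mean of the other 14 tissues in Lct by 4.40 ± 0.35 (SE, adjusted p = 1.03e-08, limma) and the large intestine by 4.30 ± 0.48 (SE, adjusted p = 5.44e-06, limma). It was higher than each of the other 14 tissues (adjusted p = 3.08e-08 to 0.00214, limma). The nearest was brain cortex, 1.95 ± 0.48 lower. Both small intestine arrays lay above the 28 others for Sis and for Lct, as they did for 2.67% of the 20852 probes with a value on every array. Among neighbours in the order of Lct, only small intestine and cortex differed. Cortex and eyes gave an adjusted p of 0.0564, and the 12 pairs below gave 0.196 to 0.999. Among all pairs of the 15 tissues, 41 differed in Lct and 27 in Sis (adjusted p under 0.05 within the pair and a difference of at least 1), and without large intestine replicate 1 the Sis pairs fell to 14, while without fat replicate 2 the Lct pairs rose to 64.

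The size of the Lct difference depended on the reference channel. On the small intestine arrays the Cy5 signal of the Lct spot was 25457 and 25747 units, whereas on the 28 other arrays it was 109 to 274, with a median of 140.2. The Cy3 signals were 186079 and 146327 units in the small intestine, and 64.4 to 2257 elsewhere. Since the reference was the same RNA on all arrays, the denominator of the ratio was 182- and 184-fold its usual value on exactly the arrays where the tissue was brightest. The Sis spot, of like Cy3 brightness, read 988 and 920 units in Cy5, against 155 to 310 elsewhere.

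**Figure D3:**
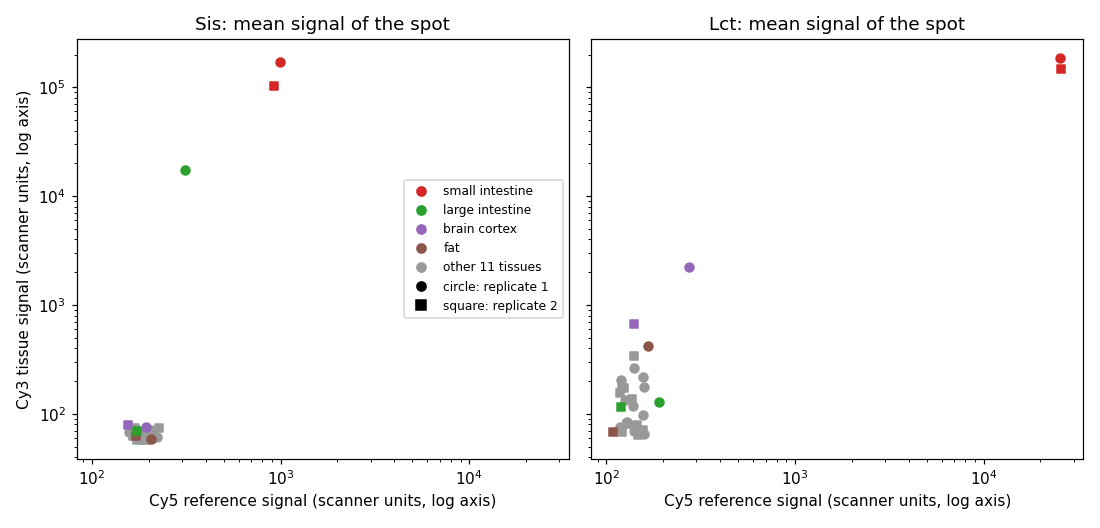
Mean signal of the spot in Cy3 (tissue) against Cy5 (reference), both in scanner units on log axes, for Sis (left) and Lct (right) on 30 arrays. The Lct spot has a Cy5 signal of 25457 and 25747 units on the small intestine arrays and between 109 and 274 on all others.

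A raised Cy5 signal was not particular to this spot. On both small intestine arrays 136 of 42034 spots had a Cy5 signal at least 10-fold their median on the other arrays, and in the other tissues 19 (fat) to 205 (liver) spots did so. Of the 112 spots whose mean Cy3 signal in the small intestine was over 50000 units, 52 were among the 136. No noncontrol spot was flagged as saturated. The cause of the Cy5 signal was not tested.

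From the Cy3 channel alone, quantile normalised between arrays, Lct read 17.50 and 17.76 in the small intestine, 10.45 and 8.78 in the cortex, and 6.25 to 10.45 over the 28 other arrays. On this scale the small intestine stood 10.40 above the mean of the other tissues (adjusted p = 1.20e-14, limma), 10.13 above the large intestine (adjusted p = 9.04e-12, limma) and 8.01 above the cortex. With median centring in place of loess the difference from the other tissues was 2.94 (adjusted p = 7.61e-08, limma) and that from the cortex 0.69, no longer past the required 1. With the scanner's processed signals, and likewise with the values of the authors, 13 and not 14 tissues lay below the small intestine. The tissue at the top was the same on each of these scales. Muscle, heart and liver were not well above background on either array, so their Lct level is only a limit beside the fitted ratio differences of 5.20 (muscle, adjusted p = 4.63e-08, limma), 5.41 (heart, adjusted p = 3.44e-08) and 5.48 (liver, adjusted p = 3.08e-08).

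**Figure D4:**
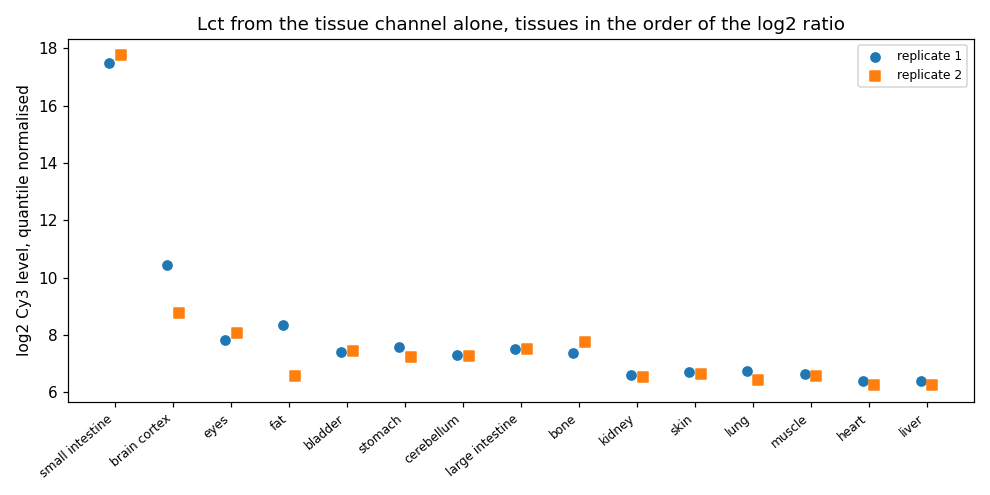
Lct level from the Cy3 channel alone (log2, quantile normalised) on 30 arrays, with tissues in the order of the log2 ratio and replicates as circles and squares. Both small intestine arrays stand above 17, whereas brain cortex lies at 10.45 and 8.78 and fat, eyes and the rest lie below cortex replicate 1.

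Tissue specificity was also expressed as information, log2 of the number of tissues minus the entropy of the linear ratios, which is 0 bits for an even level and 3.91 bits for a gene seen in 1 tissue. Sis held 3.63 bits (2.91 and 3.77 from the arrays of replicate 1 and of replicate 2) and Lct 1.36 bits (1.08 and 1.76), against a median of 0.16 over 20852 probes. Only 3 probes held more than Sis, and 5.90% of probes held more than Lct. From Cy3 alone Lct held 3.76 bits and Sis 3.74. The small intestine carried 96.8% of the summed ratio of Sis and 53.6% of that of Lct, and 98.3% and 98.7% of the summed Cy3 level.

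Brain cortex was the second tissue of Lct. It exceeded the mean of the 13 tissues other than small intestine by 2.64 ± 0.35 (SE, adjusted p = 4.28e-06, limma), a comparison in which 6.99% of all probes were called higher by at least 2. The cerebellum was 2.14 ± 0.48 lower (SE, adjusted p = 0.00660, limma), where 3.20% of probes were called higher in the cortex. The Cy3 signals were 2257 and 666 units in the cortex and 205 and 177 in the cerebellum. The cortex arrays differed by 1.46, more than all but 30 of 21002 probes. Without replicate 1 the first difference fell to 1.91, under the required 2 (adjusted p = 0.00213), and the second to 1.40 (adjusted p = 0.177). Nmnat2, a neuronal enzyme of NAD synthesis and the only one of 5 listed cortical neuron markers with a named probe, was alike in cortex (4.39 and 4.45) and cerebellum (4.72 and 4.46).

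Sis was not called in the cortex (-0.42 ± 1.04 against the same 13 tissues, SE, adjusted p = 0.758, limma). The slides held other tissues too, so the values can also be set beside those hybridised with them. On their own slides the small intestine arrays exceeded the mean of the 3 other arrays by 4.74 and 4.61 in Lct and by 9.92 and 7.47 in Sis, the last with large intestine replicate 1 among the 3. The cortex arrays exceeded the others on their slides by 2.87 (2 arrays) and 2.26 (1 array) in Lct. With slide as a random block Lct in the cortex stood 2.43 above the 13 tissues (adjusted p = 9.69e-06) and Sis in the small intestine 3.92 above the large intestine (adjusted p = 0.0150).

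Over the 15 tissue means Sis and Lct correlated with r = 0.70, and with r = -0.01 over the 14 tissues left without the small intestine. The r over all 15 means thus rested on a single tissue. Sis was at the level of the background in nearly all of the 14. The second r therefore cannot tell whether the genes are alike outside the small intestine. The points share the same libraries and reference. Among 4999 named probes, those most like Sis were 2010106E10Rik (r = 0.99), Gal3st2 (a galactose sulfotransferase, r = 0.99), 5033428B15Rik (now Ms4a18, r = 0.96), 2010001E11Rik (now Mfsd4b2, r = 0.96) and 1700019G17Rik (now Nat8f4, r = 0.95). These genes were picked for their likeness to Sis, its large intestine mean included. 2010106E10Rik read 3.55 on large intestine replicate 1 and 0.01 on replicate 2, whereas 1700019G17Rik read 0.70 and 0.52.

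The genes most like Lct were less close. They were 2610024E20Rik (now Fam13b, r = 0.83), 4933404O12Rik (r = 0.82), AI597468 (now Tmem263, r = 0.79), Abr (r = 0.78) and Abhd2 (a serine hydrolase, r = 0.78). Abr was higher in the cortex (2.69 ± 0.04, SD, n = 2) than in the small intestine (2.17 ± 0.18), the reverse of Lct.

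Few relatives of the enzymes had a named probe. Of 21 listed brush border hydrolases, 3 beside the disaccharidases were named. Alpi, intestinal alkaline phosphatase, was higher in the small intestine (4.04 ± 0.49, SD, n = 2) than the mean of the other tissues by 3.68 (adjusted p = 1.77e-10, limma). It did not pass the test against the large intestine (3.47 and 3.03, difference 0.79, adjusted p = 0.0780, limma). Ace, the peptidase angiotensin converting enzyme, differed from the other tissues by 1.45, under the required 2. Akp3, another intestinal phosphatase, was not tested because only 1 of its small intestine arrays was well above background.

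Of 41 listed enterocyte genes 13 were named, and 9 of them were higher in the small intestine. Over all probes the share was the 5.06% given above. This list and that of the brush border hydrolases were chosen with earlier results of these data known. Counts over them are therefore no independent test. Both lists together had 15 tested genes beside Sis and Lct, of which 10 were higher and 5 were not called, with a median difference of 3.08 where the median over all probes was -0.10. Ada (6.45, adjusted p = 6.33e-16, limma), Cps1 (6.25, adjusted p = 4.45e-08), Tm4sf20 (5.27, adjusted p = 3.30e-16) and Vil1, the actin bundler of microvilli (4.52, adjusted p = 1.87e-10), differed most. In the large intestine Vil1 read 5.61 and 5.12 and Tm4sf20 5.50 and 5.05, and neither passed the test between the 2 intestinal tissues. Apoa2, an apolipoprotein on the list, was not called in the small intestine (0.87 ± 0.09, SD, n = 2). Its ratio was 4.28 in cerebellum and 3.78 in liver, but its Cy3 signal was 265799 and 290350 units in liver against 7427 and 5928 in cerebellum. Slc40a1 (iron export), Otc (urea cycle) and Ugt1a2 (glucuronidation) were not called.

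Against the large intestine 6.33% of all probes were called higher in the small intestine. So were 4 of the 13 enterocyte genes: Acot12 (5.49), Cps1 (4.73), Ada (3.60) and Abcb1a (1.12). Acot12 was not well above background on either large intestine array, so its level there is only a limit. Cps1 (4.34 and -0.14) and Abcb1a (4.14 and 2.33) differed between the large intestine arrays, so their differences depend on which array is used. Among the listed transcription factors and signals of the intestine, Elf3, Nr1i3 and Ihh were higher in the small intestine than in the other tissues, by 2.73, 3.33 and 2.65. Nr1i3, a nuclear receptor, was also higher than in the large intestine, by 3.22 (adjusted p = 3.15e-11, limma), whereas Elf3 and Ihh were not called there. Of the other glycosidases, Glb1l and the lysosomal enzyme Aga differed from the other tissues by -0.84 and -0.47 and were not called.

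The 10 genes listed as neighbours of Lct on chromosome 1 all had a named probe that was tested, and none was called in the small intestine, where 5.06% of all probes were, with a median difference of -0.15. Mcm6, a subunit of the replicative helicase, came nearest with 1.15 (adjusted p = 2.48e-04, limma), under the required 2. In the cortex 1 of the 10 was called, close to the 6.99% of all probes. It was R3hdm1, which encodes a protein with an RNA-binding R3H domain (2.23 above the 13 tissues, 1.86 ± 0.39, SD, n = 2). The other 9 ranged from -1.21 (Cxcr4, a chemokine receptor) to 0.58 (Rab3gap1, a regulator of Rab GTPases).

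**Figure D5:**
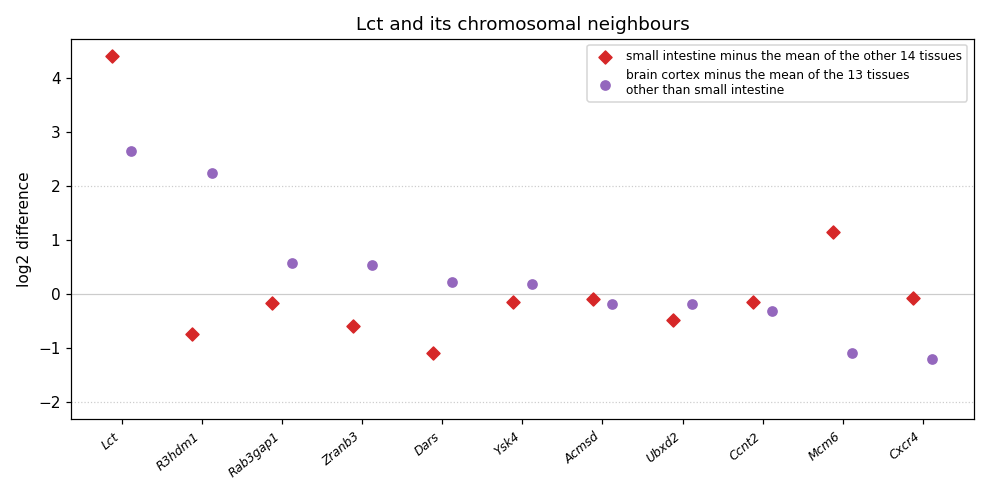
Log2 difference of the small intestine from the mean of the other 14 tissues (red diamonds) and of brain cortex from the mean of the 13 tissues other than small intestine (purple circles) for Lct and its 10 chromosomal neighbours. Dotted lines mark the required difference of 2 in either direction, which Lct passes in both and R3hdm1 in the cortex.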

How the data were processed

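The authors hybridised 30 Agilent two-colour arrays (Cy3 tissue, Cy5 reference). Spots were extracted in Feature Extraction, version 9.5.1.1 per the file headers. Per spot, the deposited files give each channel's mean and surrounding background intensity in scanner units, along with other values such as flags. The authors' value table holds 25030 probes on a log10 scale with column medians of 2.50 to 2.65. Its rows were matched by feature number, borne out by r = 0.980 to 0.990 with the log10 processed Cy3 signal over 12835 bright probes, and its centring is not stated.

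The mean signals were background-corrected (normexp, offset 50), control and outlier-flagged spots (475) were removed, and arrays were normalised by loess (limma 3.58.1, R 4.3.3). Probes of the value table well above background in Cy3 on both arrays of at least 1 tissue were kept (21019). One limma model had a coefficient per tissue, with Benjamini-Hochberg adjustment over all probes. A call needed an adjusted p under 0.05 and a log2 difference of at least 2, or 1 between 2 tissues. The code was tested on simulated data.

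Symbols came from the study's probe lists (5971 probes). Text names the 2 genes, every listed gene with a named probe, and the 5 named probes with the highest r to each. These members and lists were chosen with earlier results of these data known. Array median Cy3 signals were 85.7 to 175.3 units and 53.9% to 76.9% of spots were well above background, on 11 slides and 5 scan days. The number of arrays limits the precision. Alternatives varied the background correction, normalisation, channel, filter, blocks, weights and arrays. Some listed genes are not reported here.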

Additional observations from a re-analysis of the deposited data

Results flagged for a closer look

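The reference channel carried signal where the comparisons do not use it as a measurement. On the small intestine arrays the Lct spot read 25457 and 25747 units in Cy5, above the 109 to 274 units of the 28 other arrays, and the Sis spot read 988 and 920 units, above 155 to 310 units. Large intestine replicate 1, which had the only other high Cy3 signal of Sis, held the upper end of that second range. The cause was not tested.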

How the results depend on the processing

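Beside leaving out single arrays, 199 values were recomputed under alternatives, and 193 kept their direction and side of the threshold, moved by less than the spread or, for counts, stayed near the count reported. None of them, and none of 510 values with an array left out, reversed. Lct in cortex against cerebellum lost its call with the scanner's processed signals (2.13, adjusted p = 0.161) and with the authors' value table (2.13, adjusted p = 0.149). The information of Lct moved to 0.63 bits with median centring and to 3.76 bits from Cy3 alone. Fitting only the 4 intestinal arrays left small against large intestine at 5.54 for Sis (adjusted p = 0.626) and 4.30 for Lct (adjusted p = 0.0991). Sis did not pass the filter on at least 2 tissues and has no value there.

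With 1 array left out, small against large intestine ranged from 1.36 to 9.73 for Sis and from 3.87 to 4.73 for Lct, and large intestine against the 13 tissues from 0.39 to 8.76 for Sis. Sis information ranged from 2.96 bits (without large intestine replicate 2) to 3.76 bits. Lct in cortex ranged from 1.91 to 3.37 against the 13 tissues and from 1.40 to 2.87 against cerebellum, where the call was also lost without cerebellum replicate 2 (adjusted p = 0.0580). Pairs that differed over both genes ranged from 55 to 91 around 68. A lone array left in a tissue was assumed to vary like the others.

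The labels do not say that a replicate number marks a shared animal, and the numbers were not taken to pair the arrays. Over all pairs of tissues the deviations of same-numbered arrays correlated with r from -0.25 to 0.34, and 33 pairs exceeded 0.1. A fit with the replicate block kept the calls of the tests of both genes other than pairs (Sis against the large intestine 5.54, adjusted p = 0.0119, and Lct in cortex against cerebellum 2.14, adjusted p = 0.00529), and pairs that differed went from 41 to 45 in Lct. Scan day as a random block gave 3.72 for Sis against the large intestine (adjusted p = 0.0410). With slide or scan day as a random block 9 and not 10 list genes were enriched in the small intestine, and with slide as a block the differing pairs were 23 for Sis and 36 for Lct. The median over all probes of the difference of small intestine from the other tissues was -0.10, and -0.15 with median centring. Signals near the background limit Sis outside the intestine, where values have no order.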
